A study of Mus musculus with 6 samples.

Results

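The enzymes that build chondroitin sulphate and dermatan sulphate were examined in RNA-seq of the E14.5 lacrimal gland bud. The set was chosen by gene symbol and held 10 of the 23420 genes in the count tables: the chain polymerases Chsy1, Chsy3, Chpf and Chpf2, the N-acetylgalactosaminyltransferases Csgalnact1 and Csgalnact2, the sulphotransferases Chst3, Chst11 and Chst12, and the epimerase Dse. The 3 Control samples are titled WT, with Le-Cre as their labelled genotype, a transgene that drives Cre recombinase in conjunctival and lacrimal gland epithelium. The methods of the study name Le-Cre mice and mice also heterozygous for Pea3, Erm and Er81 alleles as controls, and for these samples the labelled genotype was taken. The 3 Pea3 TKO samples carried Le-cre together with Pea3-/-, Erm fl/fl and Er81 fl/fl, so that the Pea3 (Etv4) null allele was present in every cell of the embryo while Erm (Etv5) and Er81 (Etv1) were targeted only where Le-Cre is active. All 6 samples were E14.5 epithelium isolated by laser capture from embryos of a mixed background. The labels do not say whether each sample came from a separate embryo, and p-values therefore measure the spread between these samples.

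Chondroitin sulphate is a long sugar chain of alternating glucuronic acid and N-acetylgalactosamine that is attached to serine residues of core proteins through a short linker, which it shares with heparan sulphate. The first N-acetylgalactosamine added to the linker commits the chain to chondroitin, the polymerases extend it, and sulphotransferases then place sulphate on carbon 4 or carbon 6 of N-acetylgalactosamine. Epimerization of glucuronic acid to iduronic acid turns stretches of the chain into dermatan sulphate. Such chains hold water and growth factors in the matrix around branching epithelia. Heparan sulphate, the related chain, is known as a co-receptor for FGF in the lacrimal gland.

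Totals ran from 14194775 to 17860140 counts per sample, so that 3 counts, taken as the detection floor, corresponded to between 0.17 and 0.21 CPM (counts scaled by library size and TMM, a normalization for composition, and given per 1e+06). As a check of the labels, Etv5 fell from 1058 ± 127.5 to 139 ± 45.8 CPM, Etv4 from 151 ± 29.1 to 19.5 ± 8.79 and Etv1 from 31.8 ± 2.79 to 9.52 ± 0.410 (mean ± SD, n = 3 each, as for all values of this form). Transcript of the null gene Etv4 remained, at 10.9, 19.1 and 28.4 CPM in Pea3 TKO replicates 1 to 3, well above the floor. The epithelial genes Epcam and Cdh1 were abundant in both groups, at 1408 and 499 CPM in Control and 1256 and 1066 in Pea3 TKO. The 11 epithelial markers summed to between 3378 and 4301 CPM in Control and between 6398 and 7616 in Pea3 TKO, and 9 of the 11 rose. Of 17 mesenchyme markers, 16 were tested, and 2 were called higher and 2 lower. By sign alone 13 were higher and 3 lower, with a median log2 fold change of 1.47. The sum of mesenchyme markers was 507 to 661 CPM in Control but 881, 1053 and 475 in Pea3 TKO replicates 1 to 3. Endothelial markers summed to at most 7.76 CPM in any sample, and Emcn was at 0 in all of them. Blood and macrophage markers ran from 43.0 to 122 CPM in Control and from 58.0 to 222 in Pea3 TKO, and none of the 5 tested passed. Markers of neural crest, glia and melanocytes summed to between 212 and 311 CPM in Control and between 105 and 124 in Pea3 TKO. Of the 5 tested, 2 were lower and 3 higher, and 1, Erbb3, was called lower. Markers of cartilage, the tissue best known for chondroitin sulphate, summed to between 5.27 and 16.0 CPM in Control and between 38.7 and 49.9 in Pea3 TKO, with 1 of 3 tested called higher, while Acan had no count in 5 of 6 samples and 0.21 CPM in Pea3 TKO replicate 2. Summed Y-linked transcripts were at 136 to 175 CPM in the Control samples and 139 in Pea3 TKO replicate 3 but at 0.44 and 0.21 in Pea3 TKO replicates 1 and 2, so Y-linked expression was not balanced between the groups. In bulk samples, fewer cells of a type and less RNA per cell cannot be told apart.

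In Pea3 TKO, 3 of the 9 tested transcripts of the set fell, beside 11.3% of all tested genes called lower. They were the polymerase Chsy1 and the sulphotransferases Chst3 and Chst11, and their levels were 1.88-fold, 2.04-fold and 2.42-fold lower. The promoters of these 3 genes are shown because the transcripts moved together, with that of Chst12, the close relative of Chst11 that did not pass the test. Each is the 250 bases before the RefSeq start on GRCm38.p6, written 5′ to 3′ along the gene, and capitals mark GGAA or its reverse complement TTCC, the core letters of binding sites for ETS factors such as the Pea3 family.
Chsy1 (chr7:66109242-66109491, plus strand): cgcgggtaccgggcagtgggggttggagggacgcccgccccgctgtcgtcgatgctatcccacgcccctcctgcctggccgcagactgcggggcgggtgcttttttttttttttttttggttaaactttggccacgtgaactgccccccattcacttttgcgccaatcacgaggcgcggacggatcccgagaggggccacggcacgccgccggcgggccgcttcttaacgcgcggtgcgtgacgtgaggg
Chst3 (chr10:60219261-60219510, minus strand): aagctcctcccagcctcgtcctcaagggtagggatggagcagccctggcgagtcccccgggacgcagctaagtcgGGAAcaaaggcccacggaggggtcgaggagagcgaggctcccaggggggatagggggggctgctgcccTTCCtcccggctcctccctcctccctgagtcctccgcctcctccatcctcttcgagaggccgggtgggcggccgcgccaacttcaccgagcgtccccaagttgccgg
Chst11 (chr10:82985247-82985496, plus strand): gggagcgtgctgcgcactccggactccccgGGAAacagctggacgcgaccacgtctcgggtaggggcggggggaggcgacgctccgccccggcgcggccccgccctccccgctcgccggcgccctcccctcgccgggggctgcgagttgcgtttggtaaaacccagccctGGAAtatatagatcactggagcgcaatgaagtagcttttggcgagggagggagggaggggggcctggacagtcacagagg
Chst12 (chr5:140505359-140505608, plus strand): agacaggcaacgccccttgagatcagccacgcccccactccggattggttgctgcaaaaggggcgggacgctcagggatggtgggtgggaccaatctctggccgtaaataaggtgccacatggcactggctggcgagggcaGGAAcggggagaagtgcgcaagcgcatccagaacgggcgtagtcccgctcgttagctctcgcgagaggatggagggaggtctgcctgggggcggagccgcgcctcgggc
The windows of Chst3 and Chst11 each held GGAA 2 times, that of Chst12 held it 1 time and that of Chsy1 did not hold it. The core is common, since 93.4% of 27025 promoter windows of this length held it on either strand. Windows were examined for 8 enzymes of the set, all but Csgalnact1 and Chsy3. The longer forms CCGGAAGT and CAGGAAGT, which occurred in 2.93% and 2.73% of all windows, were in none of these 8 windows. The same held for AACAAT (9.65% of all windows), a form bound by Sox factors. The GC content of these windows was 65.6% for Chsy1, 69.6% for Chst3 and 70.0% for Chst11, above the upper quartile of 60.8% over all windows. This did not set them apart within the set, since Chst12 (65.6%), Chpf (70.4%), Dse (74.4%) and Csgalnact2 (64.0%), which did not pass the test, were above that quartile too. RefSeq starts differed from those of the GENCODE gene models for some genes. The window of Chst12 runs past its GENCODE start at 140505550. That of Dse lies within its GENCODE gene, which ends at 34207715 on the minus strand.

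The groups were compared with edgeR's quasi-likelihood test on 13087 genes left after its filter on low counts, with p-values adjusted by the Benjamini-Hochberg method across all of them. Of the 10 enzymes 9 were tested, and Chsy3 had too few counts. At an adjusted p threshold of 0.05, 3 of the 9 were lower in Pea3 TKO, against a background of 11.3% of all tested genes called lower and 25.0% called in either direction. None of the 9 was called higher by edgeR, against 13.6% of all tested genes called higher. At an unadjusted p under 0.05, 0 of them were higher and 4 lower. With DESeq2 size factors in the edgeR fit these counts were again 0 and 4, where 4949 of 13087 genes passed that threshold in either direction. DESeq2, which does not apply the same filter, called 1 enzyme, Chsy3, higher, beside 2139 of 16888 genes that it called higher. The groups did not overlap for 4 of the 9, against 43.9% of all tested genes, and in all 4 Pea3 TKO was below, as in 21.3% of all tested genes, which puts the first of these counts near its background. The median log2 fold change of the 9 was -0.33, while that of all tested genes was 0.01.

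**Figure D1:**
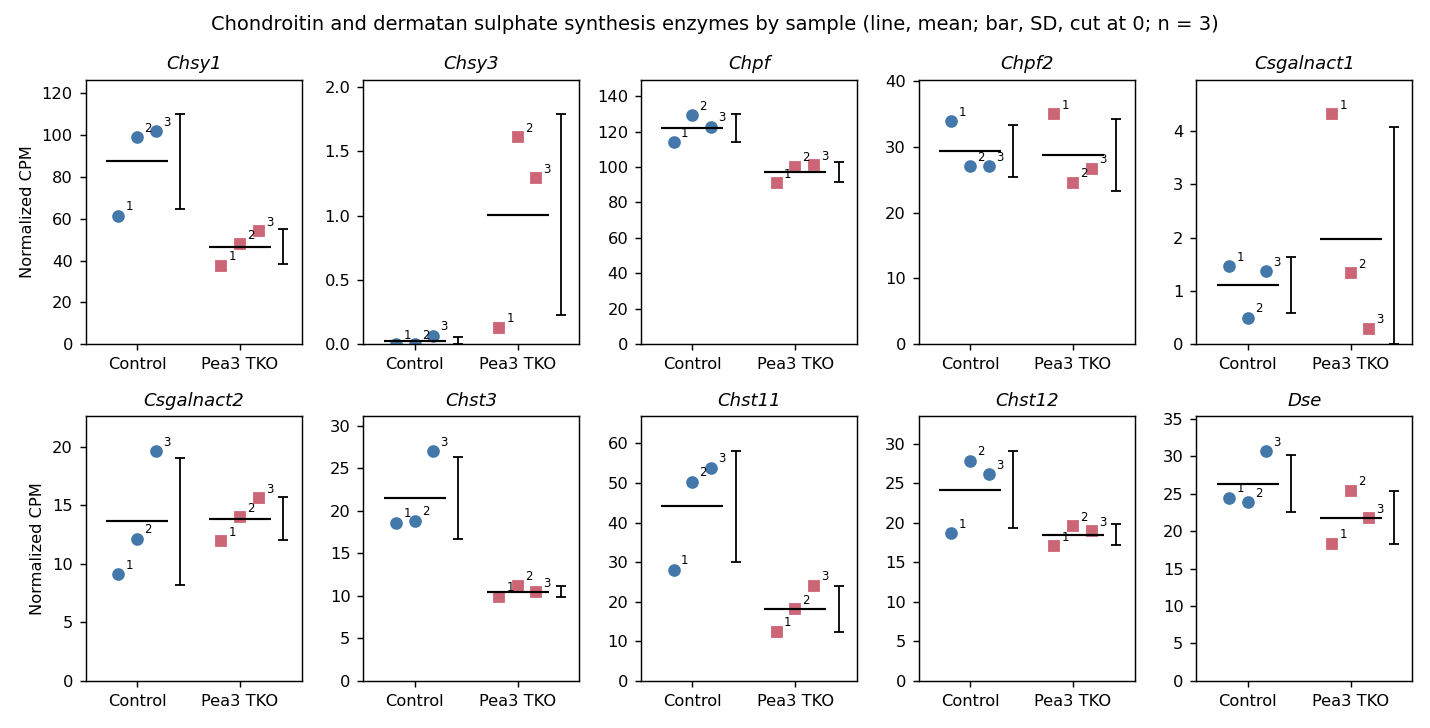
Normalized CPM of each of the 10 enzymes on the y axis, with a scale of its own in each panel, for the 3 Control (circles) and 3 Pea3 TKO samples (squares), numbered by replicate. Lines are means and bars are SDs (n = 3) cut at 0. All Pea3 TKO points of Chsy1, Chst3 and Chst11 lie below all Control points, and Control replicate 1 is the lowest Control sample for Chsy1 and Chst11.

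Among the polymerases, Chsy1 carries both sugar transferase activities needed to extend the chain and lies on chromosome 7 from 66109515 to 66173798 (GRCm38, plus strand), sharing 148 of its 4176 exonic bases with the antisense gene Gm26827. Its level was 61.4, 99.1 and 102 CPM in Control replicates 1 to 3 and 37.7, 47.8 and 54.2 CPM in Pea3 TKO replicates 1 to 3. Control replicate 1 was nearer to Pea3 TKO than to the other Control samples, but the groups did not overlap. The log2 fold change was -0.91 (standard error 0.21, edgeR adjusted p = 0.0137). Without Control replicate 1 it was -1.11 (adjusted p = 0.00143), while the call was lost without Control replicate 2, Control replicate 3, Pea3 TKO replicate 1 or Pea3 TKO replicate 2, with adjusted p of 0.0577, 0.0536, 0.0534 and 0.0509. Pea3 TKO replicate 3, which held Y-linked transcripts as the Control samples did, was also below all of them.

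Chpf, a polymerizing factor that works in complex with Chsy1, lies on chromosome 1 from 75474569 to 75479307 on the minus strand. It had the highest level per exonic length of the set in both groups, and its CPM values were 114, 129 and 123 in Control and 90.9, 100.1 and 101 in Pea3 TKO. The samples were close together within each group and the groups did not overlap. The log2 fold change of -0.33 (95% interval -0.58 to -0.07) did not pass over all tested genes (edgeR adjusted p = 0.0649), although DESeq2 placed it just past the threshold (adjusted p = 0.0495).

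Chpf2, a second factor of this kind, was at 33.9, 27.1 and 27.1 CPM in Control and 35.0, 24.5 and 26.7 CPM in Pea3 TKO. The groups overlapped, and the log2 fold change was -0.03 with a 95% interval of -0.48 to 0.41. Of its exonic length, 44.1% is shared with Smarcd3 on the opposite strand, and since the strand setting of the counting is not given in the sources used here, reads of these genes may not have been told apart.

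Chsy3, a relative of Chsy1, was near the floor in Control, with 0, 0 and 1 counts, and had 2, 23 and 22 counts in Pea3 TKO. Replicates 2 and 3 of Pea3 TKO, at 1.61 and 1.29 CPM, accounted for nearly all of the reads. Over the groups this was 1 count against 47, a depth-adjusted ratio of 49.1 with a 95% Poisson interval of 8.39 to 1979.6 that covers counting error only. The low-count filter removed the gene, and without that filter edgeR gave an adjusted p of 0.0593, whereas DESeq2 gave 0.0174. Without Pea3 TKO replicate 1, which had 2 counts, the gene passed the filter (log2 fold change 5.68, edgeR adjusted p = 0.0276). It also passed the filter without Control replicate 1, 2 or 3 but was not called there (edgeR adjusted p = 0.0744, 0.110 and 0.0719). Even in Pea3 TKO the level remained far under that of Chsy1.

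The N-acetylgalactosaminyltransferases start the chain on the linker. Csgalnact2 was at 9.13, 12.2 and 19.6 CPM in Control and 11.9, 14.0 and 15.6 CPM in Pea3 TKO, and the Control samples enclosed the Pea3 TKO samples. Its log2 fold change was 0.02 with a 95% interval of -0.67 to 0.71. Csgalnact1, which cartilage needs for normal chain number, was scarce, with 1.47, 0.499 and 1.37 CPM in Control and 4.32, 1.33 and 0.294 CPM in Pea3 TKO. The Pea3 TKO samples spread more widely than the Control samples and lay on both sides of them. Its log2 fold change of 0.83 had a 95% interval of -1.26 to 2.92, and its sign turned without Pea3 TKO replicate 1 (-0.46), the sample with the highest level, and with a covariate for Y-linked expression (-1.89). A change of either transferase was therefore not detectable with this spread.

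Of the sulphotransferases, Chst11 transfers sulphate to carbon 4 of N-acetylgalactosamine and lies on chromosome 10 from 82985498 to 83195900 on the plus strand. Its level was 28.1, 50.4 and 53.9 CPM in Control and 12.4, 18.1 and 24.1 CPM in Pea3 TKO. As for Chsy1, Control replicate 1 was the Control sample nearest to Pea3 TKO, and the groups did not overlap. The log2 fold change was -1.27 (standard error 0.30, edgeR adjusted p = 0.0134), the largest decrease among the 9 tested enzymes. Without Control replicate 1 Chst11 was at -1.52 (adjusted p = 0.00236). The call was lost without Control replicate 2 (adjusted p = 0.0552), Control replicate 3 (0.0533) or Pea3 TKO replicate 2 (0.0529), where the log2 fold change was -1.17, -1.11 and -1.27.

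Chst12 has the same activity and lies on chromosome 5 from 140505550 to 140525724. Its level was 18.7, 27.9 and 26.1 CPM in Control and 17.0, 19.6 and 19.0 CPM in Pea3 TKO, with Control replicate 1 inside the Pea3 TKO range. The log2 fold change was -0.39 (95% interval -0.87 to 0.10, adjusted p = 0.223). Thus the data neither show a change of Chst12 nor exclude a modest decrease.

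Chst3, which sulphates carbon 6, lies on chromosome 10 from 60181532 to 60219260 on the minus strand. It was at 18.6, 18.8 and 27.1 CPM in Control and 9.91, 11.2 and 10.5 CPM in Pea3 TKO. The 3 Pea3 TKO samples were within 1.28 CPM of each other and all lay below the Control samples. The log2 fold change was -1.03 (standard error 0.24, edgeR adjusted p = 0.0129). Only leaving out Control replicate 3, its highest sample, ended the call among the 6 fits without 1 sample, with a log2 fold change of -0.83 and an adjusted p of 0.065. Over the 6 samples, the tested genes whose log2(CPM + 1) followed Chst3 most closely were Wwp1, Ica1 and Abt1, with Pearson r of at least 0.994. These r values include the difference between the groups and come from the same libraries.

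Dse, the epimerase that makes iduronic acid, was at 24.5, 23.9 and 30.7 CPM in Control and 18.3, 25.4 and 21.7 CPM in Pea3 TKO. Pea3 TKO replicate 2 lay within the Control range. The log2 fold change was -0.27, with a 95% interval of -0.73 to 0.19 and an adjusted p of 0.370.

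**Figure D2:**
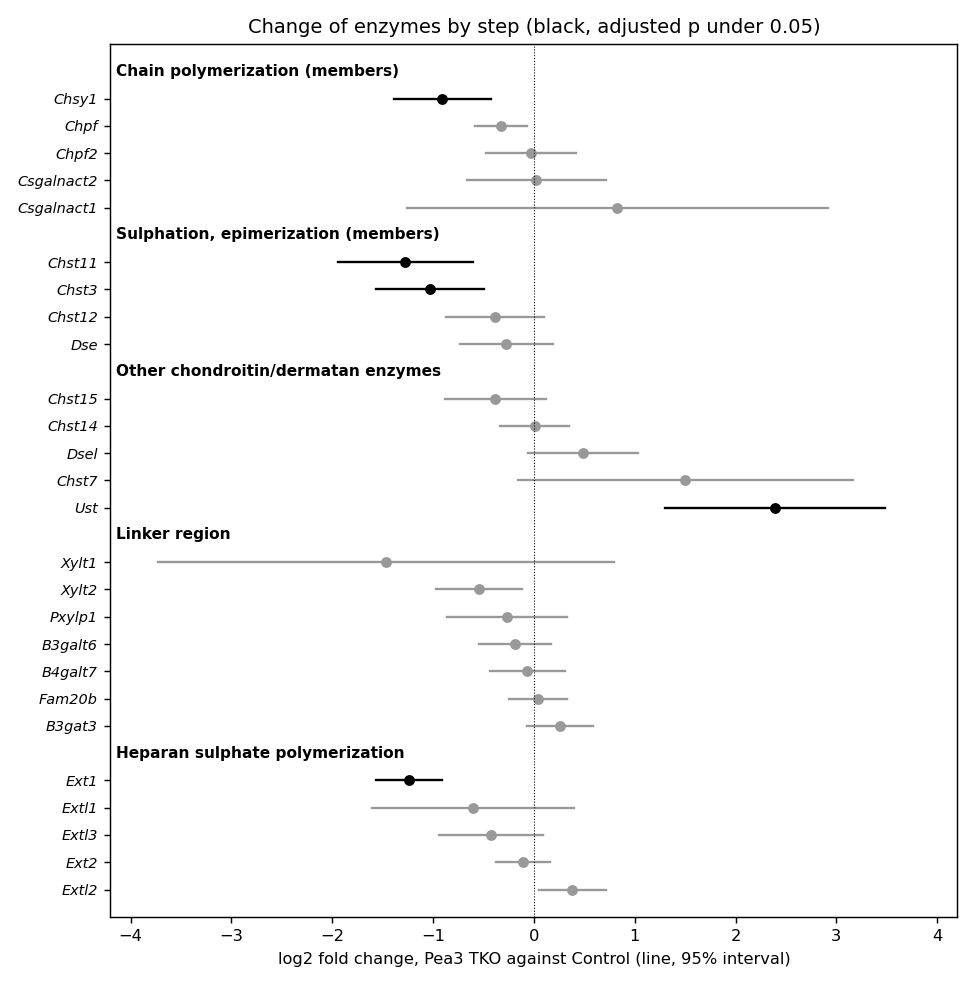
Log2 fold change of Pea3 TKO against Control on the x axis for tested enzymes, grouped by step on the y axis, with 95% intervals as lines. Black marks an adjusted p under 0.05. Chsy1, Chst11 and Chst3 are black on the lower side, Ust on the higher side and Ext1 on the lower side, while no linker enzyme is black, and Chsy3 and Chst13 are not drawn since they were not tested.

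The 3 decreases were compared with the imbalance of Y-linked expression. With Y-linked expression as a covariate, the log2 fold changes were -0.71 for Chsy1, -1.04 for Chst3 and -0.89 for Chst11, and none of the 3 passed (edgeR adjusted p = 0.246, 0.160 and 0.267). Under that covariate only 778 of all tested genes passed in place of 3268. In Pea3 TKO replicate 3, the mutant sample with Y-linked transcripts, Chst3 was at 10.5 CPM against at least 18.6 in Control and Chst11 at 24.1 against at least 28.1. The sum of mesenchyme markers was highest in Pea3 TKO replicates 1 and 2 and lowest in replicate 3. Across these 3 samples Chsy1 and Chst11 were each lowest in replicate 1 and highest in replicate 3, at 37.7, 47.8 and 54.2 CPM and at 12.4, 18.1 and 24.1 CPM, while Chst3 was at 9.91, 11.2 and 10.5 CPM. The summed markers of neural crest, glia and melanocytes were lower in every Pea3 TKO sample than in any Control sample, as the 3 transcripts were. Of the 5 tested markers of these cells, however, 2 were lower and 3 higher, with a median log2 fold change of 0.21. The part of mesenchyme and of these cells in the 3 decreases was not tested.

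Levels were compared between the enzymes as CPM per kb of exonic length. In Control the order was Chpf (31.6 ± 2.01 CPM per kb), Chsy1 (20.9 ± 5.41), Chst12 (10.3 ± 2.07), Chst11 (7.98 ± 2.53), Dse (5.29 ± 0.759), Chpf2 (5.26 ± 0.705), Chst3 (3.31 ± 0.741), Csgalnact2 (2.51 ± 0.995), Csgalnact1 (0.218 ± 0.104) and Chsy3 (0.00300 ± 0.00519). The neighbours whose Control ranges overlapped were Chst12 and Chst11, Chst11 and Dse, Dse and Chpf2, and Chst3 and Csgalnact2. In Pea3 TKO, Chpf (25.2 ± 1.43), Chsy1 (11.2 ± 1.999) and Chst12 (7.84 ± 0.566) kept the first 3 places without overlap. Chst11 (3.30 ± 1.05) came after Chpf2 (5.15 ± 0.986) and Dse (4.38 ± 0.712) and overlapped the range of Dse, and Chst3 (1.62 ± 0.0990) came after Csgalnact2 (2.55 ± 0.339) with no overlap.

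As a share of the summed CPM per kb of all 10 enzymes, Chsy1 made up 20.1%, 25.5% and 25.4% in Control and 15.9%, 18.1% and 19.9% in Pea3 TKO. Chst11 made up 6.97%, 9.79% and 10.1% in Control and 3.98%, 5.18% and 6.66% in Pea3 TKO. For both, the highest Pea3 TKO sample lay just below the lowest Control sample. The share of Chst12 was 11.7% ± 0.940 in Control and 12.7% ± 0.411 in Pea3 TKO. The sum itself was 87.4 ± 12.5 CPM per kb in Control and 61.7 ± 4.60 in Pea3 TKO. These shares are a description, and they depend on exon models that may differ from those used for counting.

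**Figure D3:**
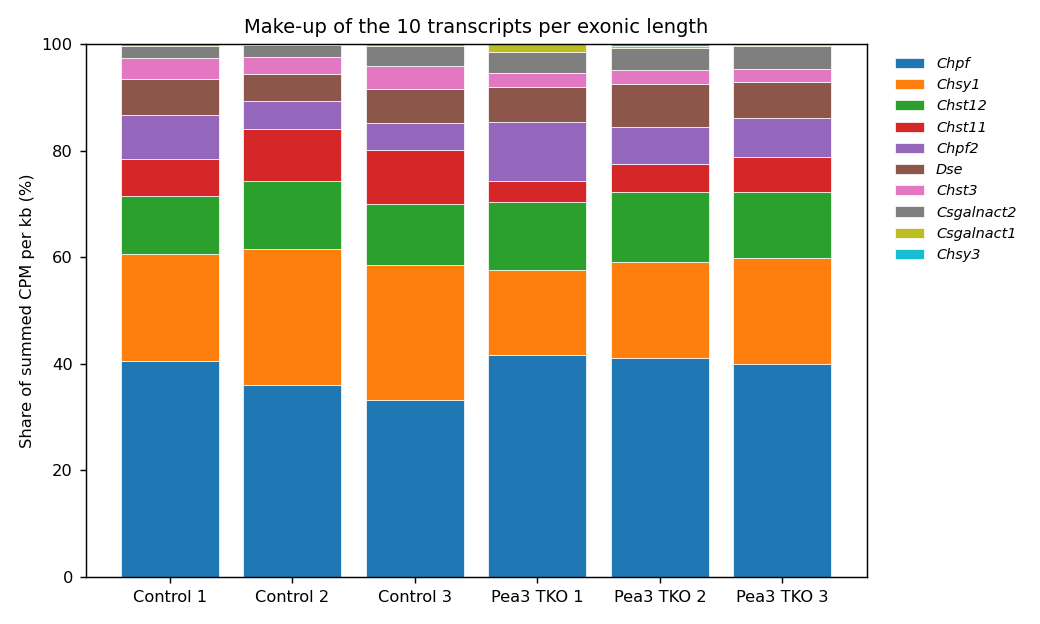
Share of the summed CPM per kb taken by each of the 10 enzymes (stacked bars, y axis in percent) in each of the 6 samples (x axis). Chpf and Chsy1 together fill the larger part of every bar, and the Chst11 segment is at most 6.66% in Pea3 TKO against at least 6.97% in Control.

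Ratios of related enzymes within a sample do not depend on library scaling, and 6 of them had enough counts to compare by an exact two-sided permutation test, whose smallest possible p with 3 samples against 3 is 0.10. The log2 ratio of Chst11 to Chst12 counts was 0.59, 0.85 and 1.04 in Control and -0.45, -0.11 and 0.34 in Pea3 TKO. Every Pea3 TKO sample was lower than every Control sample, and the means differed by -0.90 (exact p = 0.10, adjusted p = 0.30 over the 6 ratios). The ratio of Chst3 to Chst7, both of which act on carbon 6, differed by -2.61 with no overlap (exact p = 0.10, adjusted p = 0.30), although Chst7 averaged only 24.8 counts per sample. Its log2 values were 5.67, 3.75 and 5.18 in Control and 2.56, 2.60 and 1.61 in Pea3 TKO.

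The other 4 ratios overlapped between the groups. Chpf to Chpf2 differed by -0.29 (exact p = 0.40), Csgalnact1 to Csgalnact2 by 0.18 (exact p = 0.90) and Dse to its relative Dsel by -0.73 (exact p = 0.20). The sum of the 4 chondroitin polymerases relative to the heparan sulphate polymerases Ext1 and Ext2 differed by -0.10 (exact p = 0.50), with log2 ratios of -0.72, -0.38 and -0.60 in Control and -0.64, -0.80 and -0.58 in Pea3 TKO. Ext1 itself, called in every fit, fell from 102 ± 10.6 to 43.1 ± 4.90 CPM (log2 fold change -1.24, standard error 0.15, edgeR adjusted p = 4.9e-04), while Ext2 was at 251 ± 23.1 and 233 ± 21.4 CPM (log2 fold change -0.11, adjusted p = 0.561). The decreases of Chsy1 and Ext1 were not tested against each other, and the summed ratio of the chain types did not differ beyond the spread of the samples.

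**Figure D4:**
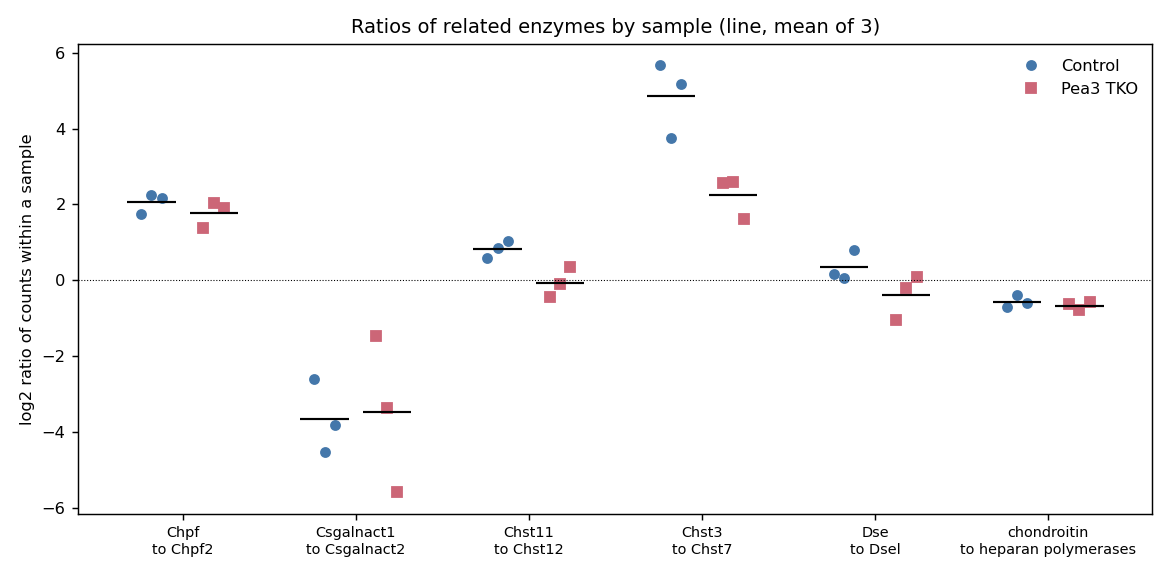
Log2 ratio of counts of related enzymes within each sample (y axis) for 6 ratios (x axis), with Control as circles, Pea3 TKO as squares and lines for the means of 3 samples. The groups are apart for Chst11 to Chst12 and for Chst3 to Chst7 and overlap for the other 4.

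Of the 5 remaining enzymes of the chain that were tested, 1 transcript rose, beside 13.6% of all tested genes called higher. Ust, which sulphates carbon 2 of the uronic acid, was at 1.01, 2.18 and 0.975 CPM in Control and 6.41, 7.76 and 7.75 CPM in Pea3 TKO. The groups were well apart, and the log2 fold change was 2.39 (standard error 0.49, edgeR adjusted p = 0.00731). Chst14, the dermatan sulphotransferase for carbon 4, was at 63.3 ± 9.07 and 63.6 ± 6.86 CPM (log2 fold change 0.01, 95% interval -0.34 to 0.35). Chst15, which adds a further sulphate to chains already sulphated at carbon 4, had a log2 fold change of -0.38 (95% interval -0.88 to 0.12), Dsel one of 0.49 (-0.06 to 1.04) and Chst7 one of 1.5 (-0.16 to 3.16). Chst13 had no count in any sample. None of the 7 linker enzymes passed by edgeR, beside 25.0% of all tested genes called in either direction. With DESeq2 size factors in the edgeR fit, 4949 of 13087 genes had an unadjusted p under 0.05 in either direction. By that threshold 0 linker enzymes were higher and 1 was lower, in this fit and in the main fit. This was Xylt2, a xylosyltransferase that starts the linker, at 70.1 ± 1.62 CPM in Control and 48.1 ± 12.4 in Pea3 TKO with no overlap (log2 fold change -0.54, edgeR adjusted p = 0.0623). DESeq2 placed Xylt2 past the threshold (adjusted p = 0.0344), as did edgeR without Pea3 TKO replicate 1 (0.0417) and with the Y-linked covariate (0.0227). The call of Ust was lost with that covariate (log2 fold change 2.44, adjusted p = 0.0637).

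Of 15 tested genes that supply the chain with sugar and sulphate donors, 2 fell and 4 rose, where 11.3% of all tested genes were called lower and 13.6% higher, so that the count of those that fell is near the background. Slc35d1, which carries the sugar nucleotides for chondroitin into the secretory pathway, fell from 43.0 ± 12.8 to 17.7 ± 5.22 CPM (log2 fold change -1.28, adjusted p = 0.00933). Its level was 29.8, 44.0 and 55.2 CPM in Control and 15.8, 23.6 and 13.6 CPM in Pea3 TKO, and the groups did not overlap. By contrast, Slc35b3, a Golgi transporter of the sulphate donor PAPS, rose from 22.8 ± 2.26 to 47.4 ± 3.79 CPM (log2 fold change 1.05, adjusted p = 0.00178). Papss2, a PAPS synthase, rose from 8.11 ± 7.28 to 64.1 ± 21.8 CPM (log2 fold change 2.97, adjusted p = 0.00424), and Control replicate 1 was its highest Control sample at 16.5 CPM. Uxs1 also fell, and Slc35d2 and Cant1 also rose, but the call of Uxs1 was lost without any 1 sample other than Control replicate 1, and those of Slc35d2 and Cant1 without Control replicate 2 or 3 or Pea3 TKO replicate 1 or 2. Slc35d1 and Slc35b3 kept their calls in every fit, the Y-linked covariate included, and Papss2 in all but that one (adjusted p = 0.081). The more abundant PAPS synthase gene Papss1 was at 312 ± 15.4 CPM in Control and 247 ± 20.8 in Pea3 TKO with no overlap. It did not pass in the main fit (log2 fold change -0.34, edgeR adjusted p = 0.0527). Slc35b2, more abundant than Slc35b3, was at 184 ± 8.20 and 208 ± 25.0 CPM and did not pass (edgeR adjusted p = 0.321).

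Of 22 core protein genes that can carry chondroitin or dermatan sulphate, 14 were tested, of which 5 rose and 1 fell, beside the 13.6% of all tested genes called higher and 11.3% called lower. Sdc1, a syndecan that carries both chain types, rose from 351 ± 49.6 to 617 ± 44.6 CPM (log2 fold change 0.81, adjusted p = 0.00222) and Col14a1 from 212 ± 24.0 to 452 ± 104 CPM (log2 fold change 1.09, adjusted p = 0.00222). Cd44, the hyaluronan receptor, rose from 1.70 ± 1.42 to 22.7 ± 11.4 CPM (log2 fold change 3.73, adjusted p = 0.00795). Thbd and Dcn also rose and Col9a2 fell. Dcn, which mesenchyme also expresses and whose groups overlapped, was at 69.7 and 73.6 CPM in Pea3 TKO replicates 1 and 2 but at 2.41 in replicate 3, in the order of the mesenchyme markers. Thbd was not called without any 1 of the 6 samples, Dcn without Control replicate 2 or Pea3 TKO replicate 1 or 2, and Col9a2 without Control replicate 3 or Pea3 TKO replicate 2. With the Y-linked covariate 0 of the 6 passed, and Dcn was at a log2 fold change of 0.25. The large aggregating proteoglycan Vcan was at 310, 482 and 412 CPM in Control and 581, 432 and 440.0 CPM in Pea3 TKO, with overlap of the groups and a log2 fold change of 0.27 (95% interval -0.13 to 0.67).

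Among 17 tested genes for the breakdown of these chains or their core proteins, 3 fell and 2 rose, which is near the background of 25.0% of all tested genes called in either direction (11.3% lower and 13.6% higher). Adamts4, a protease that cleaves chondroitin sulphate proteoglycans, fell from 42.5 ± 5.41 to 9.05 ± 3.95 CPM (log2 fold change -2.23, adjusted p = 0.00112). Adamts1, a protease of the same family, rose from 47.7 ± 2.74 to 85.4 ± 7.51 CPM (log2 fold change 0.84, adjusted p = 0.00204). Ids, the lysosomal iduronate sulphatase, rose from 6.34 ± 1.61 to 15.3 ± 1.36 CPM (log2 fold change 1.27, adjusted p = 0.0112), and Hyal2 and Sumf2 fell. Adamts4 passed in every fit, whereas Adamts1 and Ids did not pass with the Y-linked covariate, Hyal2 passed in only 1 of the 6 fits without 1 sample, and Sumf2 was lost without Control replicate 2 or Pea3 TKO replicate 2. Counts called higher among the breakdown genes rose to 4 with DESeq2, upper-quartile factors or a filter at a mean count of 50. They also rose to 4 without Control replicate 1 or Pea3 TKO replicate 3, and were 0 with the Y-linked covariate. The median log2 fold change was 0.29 for these breakdown genes, 0.70 for the core proteins, 0.02 for donor supply and -0.19 for the linker enzymes, beside 0.01 for all tested genes. Whether these lists differed from the 10 synthesis enzymes was not tested.

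**Figure D5:**
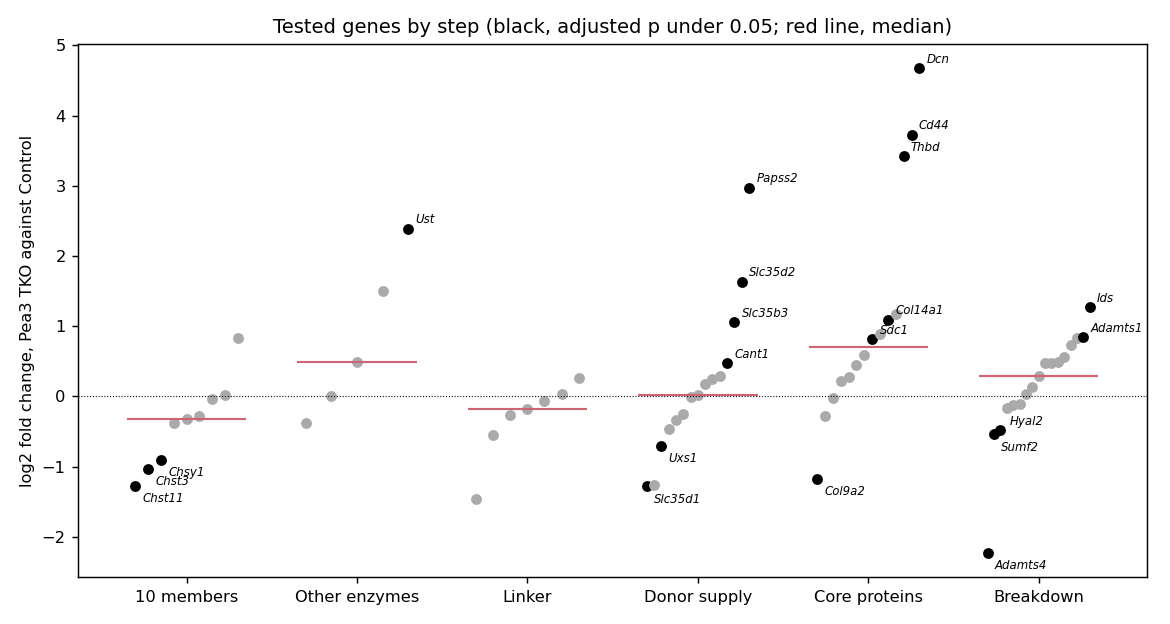
Log2 fold change of Pea3 TKO against Control (y axis) for every tested gene of the synthesis enzymes and of 5 further lists (x axis). Black points passed an adjusted p of 0.05 and are named, grey points did not, and the line is the median of each list. The named synthesis enzymes Chsy1, Chst3 and Chst11 are all on the lower side, whereas 5 of the 6 named core proteins are on the higher side.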

How the data were processed

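RNA of laser captured E14.5 lacrimal gland buds was amplified (Ovation RNA-Seq System V2) and sequenced. The authors deposited 1 table of raw, unnormalized read counts by gene symbol for each sample. The submitters' processing notes name STAR 2.5.2b, featureCounts 1.5.0-p3, DESeq and mm10 without settings; strand setting and annotation are not given in the sources used here.

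From these counts, genes were kept by filterByExpr of edgeR 4.0.16 (R 4.3.3), scaled by TMM and compared by the quasi-likelihood test in a model of condition alone. Standard errors were derived from each gene's fold change and F value. Positions and exonic lengths are from GENCODE M21 (GRCm38) by symbol, promoters from RefSeq (GRCm38.p6). The enzymes and gene lists were chosen with earlier results of these data known. The rule for named genes took all 10 enzymes, the 3 smallest p per further list with values and other called genes by name; the other values given for list genes were added after they were seen. Alternatives were DESeq2 1.42.0, other scalings and filters, the replicate block, a covariate for Y-linked genes (Ddx3y, Eif2s3y, Kdm5d and Uty) and leaving out each sample. Replicates were distinct libraries (chi-square per degree of freedom at least 15.5). The scripts were tested on simulated data.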

Additional observations from a re-analysis of the deposited data

How the results depend on the processing

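The decreases of Chsy1, Chst3 and Chst11 kept their direction in all 14 alternative fits. Of these fits, 9 called Chsy1, 12 Chst3 and 10 Chst11. The count of synthesis enzymes called was 3 and ranged from 0 to 3 over the fits without 1 sample (0 without Control replicate 3, 1 without Control replicate 2 and 1 without Pea3 TKO replicate 2), those called lower from 0 to 3 and those called higher from 0 to 1. It was 5 with DESeq2 (4 lower, 1 higher), where 3966 of 16888 genes were called (1827 lower, 2139 higher). The count of enzymes was 0 with the Y-linked covariate in edgeR and 0 at an adjusted p under 0.01 in edgeR. At an unadjusted p under 0.05, 4 enzymes were lower and 0 higher. These counts were 1 and 0 with the covariate and 4 and 1 without Control replicate 3. That threshold was passed in either direction by 2722 of 13087 genes with the covariate and by 4136 of 13497 without Control replicate 3. With DESeq2 size factors in the edgeR fit, 4 enzymes were lower and 0 higher, and 4949 of 13087 genes passed it in either direction. Over all genes, 3268 were called (1485 lower, 1783 higher), and without 1 sample the count ranged from 1948 to 3344 (lower 799 to 1417, higher 1131 to 1948). It was 778 (286 lower, 492 higher) with the Y-linked covariate and 1426 (580 lower, 846 higher) at an adjusted p under 0.01. The methods of the study give cutoffs for downregulated genes, and with these applied here in both directions it was 1711 (529 lower, 1182 higher). The cutoffs were an unadjusted p under 0.05, a log2 fold change beyond 1 and a mean normalized count above 50 in either group. The covariate, the replicate block and the smaller groups leave fewer degrees of freedom, but the part of this in the counts was not tested. Scaling by DESeq2 size factors, upper quartiles or library totals kept all 3 calls.

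Titles number the replicates 1 to 3 in both groups. Deviations from the group means correlated at 0.14, -0.06 and 0.05 for samples sharing a number and at -0.13 to 0.12 for the others. With 3 samples per group, these values cannot tell whether the numbers pair the samples. With the replicate block, 3191 genes were called (1422 lower, 1769 higher), 3 of the synthesis enzymes among them. The log2 fold changes were -0.89 for Chsy1, -1.01 for Chst3 and -1.27 for Chst11 (edgeR adjusted p = 0.00328, 0.0197 and 0.00182). Their standard errors were 0.14, 0.25 and 0.18, against 0.21, 0.24 and 0.30 without the block. In the further lists, the block ended the calls of Uxs1, Dcn and Hyal2 and added those of Xylt2, Spock2 and Extl3, among others.

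The differences in log2 ratio kept their sign without each sample in turn, except Csgalnact1 to Csgalnact2, which ranged from -0.83 to 1.24. The ratio of Chst11 to Chst12 ranged from -1.11 to -0.71 and that of Chst3 to Chst7 from -3.17 to -2.21. Depth limits Chsy3, Csgalnact1 and Chst7, which had at most 68 counts in any sample.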
